A study of Mus musculus with 15 samples.

Results

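Transcripts known from mature dendritic cells were followed in RNA of sorted CD8+ T cells, some of which had been cultured with dendritic cells. The set holds 10 genes, Fscn1, Ccl22, Ccl17, Cd40, Cd80, Cd86, Il12b, Xcr1, Itgax and Flt3, chosen by symbol from the 17493 genes of the count tables. All 10 had counts, and 8 had enough to be tested. Ccl17 and Cd80, with 61 and 26 counts over all libraries, were not.

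The T cells were OT-I cells of spleen and lymph nodes, taken from females of the strain C57BL/6-Tg(TcraTcrb)1100Mjb, whose transgenic receptor recognises an ovalbumin peptide on MHC class I. The 15 libraries form 5 groups of 3. The group called unstimulated had no treatment and was taken at 0 h. The IF groups had 5 ng/ml of immunofilaments, synthetic filaments carrying SIITFEKL-loaded MHC and interleukin-2, for 8 h or 22 h. The DC groups had 20000 Flt3 ligand dendritic cells that had been loaded with SIITFEKL peptide, for 8 h or 22 h. Each stimulated well held 50000 T cells. Age, the mice that gave the dendritic cells, and what a replicate number stands for were not given in the sources used here. The titles number the replicates of every group Don1 to Don3 and do not say what Don means, so p-values measure the spread between these samples, which may be technical. The sort kept viable cells that stained for CD8 and not for CD103. A subset of dendritic cells carries both CD8 alpha and CD103, and other dendritic cells carry neither.

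Dendritic cells take up antigen, mature, and then present it to T cells with costimulation. Fascin (Fscn1) bundles actin in the long processes of mature dendritic cells, and CCL22 and CCL17 are chemokines that they release to attract cells with the receptor CCR4. CD40 receives the CD40 ligand signal of T cells, CD80 and CD86 bind CD28 and CTLA-4, and Il12b encodes the p40 subunit of interleukin-12. XCR1 is the receptor of cross-presenting dendritic cells for XCL1, a chemokine that CD8 T cells release. Itgax encodes CD11c, an integrin chain found on most dendritic cells, and Flt3 encodes the receptor of the growth factor used to raise them. Itgax, Cd86 and Cd80 are also expressed by other leukocytes, among them activated lymphocytes.

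The promoters of 4 genes are shown because these genes passed the test in opposite directions in the DC wells, Fscn1 and Ccl22 upward and Xcr1 and Itgax downward. Each line gives the 250 bases before the start of the gene from RefSeq (GRCm38.p6), 5′ to 3′ on the strand of the gene. They lie at chr5:142960105-142960354 (plus strand) for Fscn1, chr8:94745434-94745683 (plus) for Ccl22, chr9:123862030-123862279 (minus) for Xcr1 and chr7:128129300-128129549 (plus) for Itgax. Capitals mark matches on either strand to GGGNNNNNCC, a loose frame of NF-kappaB sites, and to GGAAGT, a core of ETS family sites. No match of one overlaps a match of the other in these 4 sequences.
Fscn1: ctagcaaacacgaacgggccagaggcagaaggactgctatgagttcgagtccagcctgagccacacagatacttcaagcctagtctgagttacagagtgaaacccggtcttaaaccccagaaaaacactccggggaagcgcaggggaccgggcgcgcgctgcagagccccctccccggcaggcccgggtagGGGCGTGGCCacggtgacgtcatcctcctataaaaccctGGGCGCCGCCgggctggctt
Ccl22: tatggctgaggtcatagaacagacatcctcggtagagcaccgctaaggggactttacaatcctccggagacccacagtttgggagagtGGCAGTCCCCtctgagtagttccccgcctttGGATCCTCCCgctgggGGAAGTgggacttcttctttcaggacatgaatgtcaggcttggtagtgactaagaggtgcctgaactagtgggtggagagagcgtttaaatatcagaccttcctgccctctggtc
Xcr1: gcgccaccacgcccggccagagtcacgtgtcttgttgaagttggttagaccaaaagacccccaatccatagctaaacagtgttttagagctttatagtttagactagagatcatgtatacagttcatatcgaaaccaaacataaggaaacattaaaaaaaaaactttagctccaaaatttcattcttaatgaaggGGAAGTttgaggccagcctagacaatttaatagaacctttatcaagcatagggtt
Itgax: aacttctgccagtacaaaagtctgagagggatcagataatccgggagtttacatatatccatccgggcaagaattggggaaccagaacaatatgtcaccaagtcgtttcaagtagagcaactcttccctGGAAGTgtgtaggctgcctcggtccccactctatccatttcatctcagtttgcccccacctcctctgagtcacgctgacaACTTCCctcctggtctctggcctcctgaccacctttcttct
The first motif was in 3 of the 8 promoters that matched the set (Fscn1, Ccl22 and Cd80) and in 45.8% of 32851 mouse promoters of this length. The second was in 4 of 8 (Ccl22, Xcr1, Itgax and Flt3) and in 19.7% of all. Fscn1 held the first motif alone, Xcr1 and Itgax the second alone, and Ccl22 both. A match is a description of the letters and no evidence of binding.

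Total counts ran from 2892874 to 19806730 per library, and 11427 to 13591 genes had a count. Levels are normalised read counts (CPM, on library totals scaled by TMM factors). A level of 3 counts, taken as the detection limit of a library, lay between 0.153 and 0.993 CPM. The counts start at the 3′ end and are not divided by length, so levels are compared between groups and not between genes. IF 22 h replicates 2 and 3 stood apart from the other libraries, with mitochondrial ribosomal RNA at 0.179% and 0.146% of counts against 1.82% to 4.49% elsewhere. Test results in which IF 22 h takes part are given with and without them where a call differs. Counts of the dendritic cell identity and T cell partner lists at IF 22 h against unstimulated cells are given with them only. In bulk RNA, fewer cells of a type and less RNA per cell cannot be told apart.

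Fscn1 (chr5:142960343-142973185, mm10) was abundant in the DC wells. It was at 168, 132 and 126 CPM at DC 8 h and 94.7, 87.5 and 72.8 CPM at DC 22 h. In unstimulated libraries it was at 0, 0.181 and 6.74 CPM, and at IF 8 h at 0.535, 0.662 and 0.268 CPM, which is 3, 2 and 1 counts. Every DC library lay above every unstimulated and every IF library. At IF 22 h Fscn1 was at 5.83, 21.5 and 43.8 CPM, although no dendritic cells were added to those wells. The highest of these, replicate 3, held 859 counts.

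Ccl22 (chr8:94745590-94751699) was also highest in the DC wells, at 18.2, 14.4 and 10.3 CPM at DC 8 h and 10.1, 11.0 and 6.40 CPM at DC 22 h. The unstimulated libraries held 1, 0 and 0 counts. At IF 8 h it was at 0.891, 2.98 and 0 CPM and at IF 22 h at 0.714, 1.55 and 1.28 CPM. All 6 DC libraries lay above all other libraries. Ccl17, the neighbouring chemokine gene (chr8:94810453-94812036), had few counts, with 11, 3 and 0 at DC 8 h and 14, 24 and 0 counts at DC 22 h. It had 0 counts in every unstimulated library, 4, 1 and 0 at IF 8 h, and 0, 0 and 4 at IF 22 h. Replicate 3 had 0 in both DC groups, where Ccl22 had 70 and 75 counts. Summed over 3 libraries, Ccl17 was at least 7.14-fold higher at DC 22 h than in unstimulated cells, taking 3 counts over the group as the floor, and 11.7-fold higher than at IF 22 h (95% counting interval 4.21 to 45.1). Of the 38 counts at DC 22 h, 24 were in replicate 2, and the ratios without that library were not computed. All 4 of the IF 22 h counts were in replicate 3. Against IF replicate 1 alone, which had 0, it was at least 3.60-fold higher, taking 3 counts in that library as the floor. At 8 h the ratio of DC to IF was 1.39 (0.472 to 4.92), so no difference was detectable at this depth.

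Il12b (chr11:44400063-44414033) had 31, 36 and 9 counts at DC 8 h, 17, 12 and 0 at DC 22 h, 1, 0 and 1 in unstimulated cells, 0 in all IF 8 h libraries, and 0, 0 and 8 at IF 22 h. These are 3.07, 4.47 and 1.32 CPM at DC 8 h and 1.93, 1.33 and 0 CPM at DC 22 h. The DC 8 h libraries lay above all unstimulated and IF libraries, and DC 22 h overlapped both. Over the group Il12b was 25.3-fold higher at DC 8 h than in unstimulated cells (95% counting interval 6.78 to 213) and at least 12.5-fold higher than at IF 8 h. It passed edgeR's test across all genes in none of the 9 comparisons. DESeq2 called it in DC against IF over both times (adjusted p 0.0102), and so did edgeR when replicate 3 of IF 22 h (0.0462) or of DC 22 h (0.0228) was left out. Without a low-count filter edgeR called it there (0.00278), at DC 8 h against unstimulated cells (0.0470) and in DC against IF at 8 h (0.0303).

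The costimulatory genes differed less. Cd40 (chr2:165055627-165072948) was at 1.09, 2.98 and 1.47 CPM at DC 8 h and 5.46, 2.43 and 0.683 CPM at DC 22 h, against 0.440, 0.361 and 0.465 CPM in unstimulated cells. At IF 8 h it had 2, 1 and 0 counts, and at IF 22 h 6, 0 and 20 counts. All DC libraries lay above the unstimulated ones, but the difference did not pass the test. Cd86 (chr16:36603869-36666081) was present in every group, at 1.47, 4.15 and 1.40 CPM in unstimulated cells, 1.60, 3.31 and 1.34 at IF 8 h, 3.26, 4.72 and 2.64 at DC 8 h, 1.55, 2.39 and 1.58 at IF 22 h, and 3.30, 3.65 and 2.56 at DC 22 h. Each DC range overlapped that of unstimulated cells, while at 22 h all DC libraries lay above all IF libraries. Its DC to IF ratio of summed counts was 1.84 at 8 h (95% counting interval 1.16 to 3.01) and 1.77 at 22 h (1.27 to 2.47). Neither difference passed edgeR's test (adjusted p 0.833 and 0.567). Cd80 (chr16:38455561-38496335) had at most 6 counts in any library and 26 in all. Its DC to IF ratio of summed counts at 22 h was 2.15 (95% counting interval 0.548 to 10.04), so neither equal levels nor a several-fold difference could be told apart.

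Xcr1 and Itgax did not follow the label of mature dendritic cell transcripts. Xcr1 (chr9:123852315-123862029) was highest in unstimulated cells, at 9.53, 17.2 and 45.6 CPM, where no dendritic cells had been added. It was at 2.87, 3.35 and 2.35 CPM at DC 8 h and at 0.227, 0.110 and 0.256 CPM at DC 22 h, which is 2, 1 and 3 counts. At IF 8 h it was at 1.25, 0 and 9.37 CPM and at IF 22 h at 0.595, 0.119 and 2.96 CPM. All unstimulated libraries lay above all stimulated ones. The DC 22 h libraries were at or under their detection limits, and all lay below all DC 8 h libraries.

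Itgax (chr7:128129547-128150657) was at 12.8, 16.3 and 14.4 CPM in unstimulated cells, 11.1, 15.2 and 11.8 at IF 8 h, 6.92, 5.21 and 3.81 at DC 8 h, 14.3, 14.0 and 31.8 at IF 22 h, and 2.05, 2.10 and 7.69 at DC 22 h. Every DC library lay below every unstimulated and IF library. Flt3 (chr5:147330741-147400489) was at 3.26, 3.85 and 5.57 CPM at DC 8 h, 2.39, 2.76 and 3.59 at DC 22 h, 1.78, 3.34 and 6.94 at IF 22 h, 0.891, 2.32 and 0 at IF 8 h, and 1.32, 0.181 and 2.09 in unstimulated cells. Its DC libraries lay above the unstimulated ones and overlapped IF at 22 h, where IF replicate 3 was the highest of all 15 libraries.

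**Figure D1:**
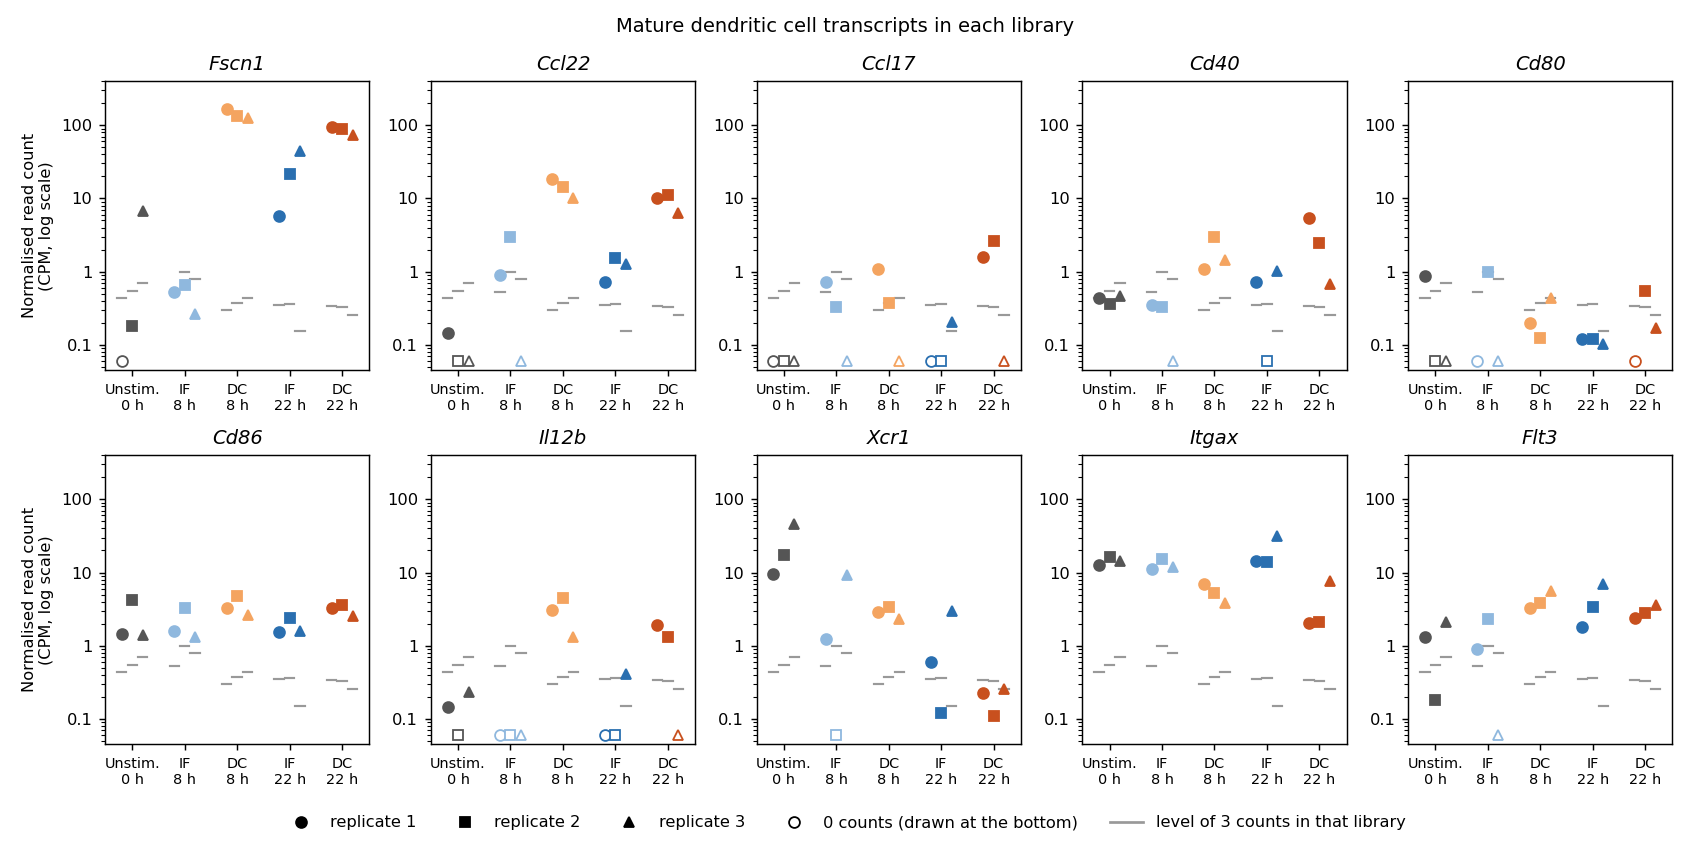
Level of each of the 10 genes in each of the 15 libraries, as normalised read count (CPM) on a log scale, with the marker shape giving the replicate and a grey tick the level of 3 counts in that library; open markers at the bottom are libraries with 0 counts. Fscn1 and Ccl22 are highest in the 6 DC libraries, Itgax is lowest there, and Xcr1 falls from unstimulated cells to the detection limit at DC 22 h.

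Against unstimulated cells, Fscn1 and Ccl22 rose with dendritic cells at both times. By edgeR's quasi-likelihood test, with p-values adjusted over 10831 genes, 2 of the 8 tested genes were higher at DC 8 h and 0 lower, where 2.75% of all genes were higher and 4.07% lower. The log2 fold change (± SE) of Fscn1 was 6.16 ± 0.85 (adjusted p 0.000300). It rests on unstimulated replicate 3, which held 29 of the 30 unstimulated counts: without that library it was 10.53, and without replicate 1 it was 5.45. That of Ccl22 was 7.58 ± 1.68 (adjusted p 0.000157) and rests on 1 unstimulated count. The ratio of its summed counts was 247, with a 95% counting interval of 44.0 to 9768. Without unstimulated replicate 1, which held that count, the fitted value was 9.85 against a group at 0, which is no bound. Xcr1 and Itgax did not pass, at −3.06 ± 0.88 (adjusted p 0.0575) and −1.43 ± 0.46 (adjusted p 0.0722), and neither did Il12b (adjusted p 0.111). Xcr1 passed without IF 22 h replicates 2 and 3, at −3.06 (adjusted p 0.0355), and was at −2.21 without unstimulated replicate 3 (0.281). Itgax was called by DESeq2 (adjusted p 0.0309). Both passed without a low-count filter (6.37e-06 and 0.00812) and when the fit held just those 2 groups (0.00480 and 0.0202), and Xcr1 also after thinning (0.0478) and with a replicate block (0.0454).

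At DC 22 h 2 of the 8 were higher and 2 lower, beside 3.41% and 4.35% of all genes. Fscn1 rose by 5.42 ± 0.85 (adjusted p 0.000932) and Ccl22 by 6.94 ± 1.68 (adjusted p 0.000396). Fscn1 was at 9.80 without unstimulated replicate 3 and at 4.72 without replicate 1, and Ccl22 was at 9.22 without replicate 1. Xcr1 fell, with −6.79 ± 1.32 (adjusted p 0.00223) and −5.93 without unstimulated replicate 3, and Itgax fell, with −1.85 ± 0.46 (adjusted p 0.0218). The call of Itgax was lost without unstimulated replicate 2 or 3 or DC 22 h replicate 1 or 2 (adjusted p 0.0591 to 0.0899) and when the fit held just those 2 groups (0.0698). It was at −2.79 without DC 22 h replicate 3. Cd40, at 2.71 ± 1.10, did not pass (adjusted p 0.145). All 4 stimulated groups were compared with the same unstimulated libraries, which also differ from them in time since isolation, so stimulus and culture time cannot be told apart in these contrasts.

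The IF wells held calls of the same genes. At IF 8 h 1 of the 8 was higher and 0 lower, beside 3.04% and 4.72% of all genes. It was Ccl22 (4.02 ± 1.73, adjusted p 0.0493), although IF replicate 3 had 0 counts and overlapped the unstimulated libraries. This call was lost on leaving out any 1 of the 3 unstimulated libraries, or IF 8 h replicate 1 or 2, with values of 2.82 to 6.28 (adjusted p 0.0809 to 0.201). It was also lost after thinning and with a replicate block. Xcr1 did not pass at IF 8 h (−2.76 ± 0.91, edgeR adjusted p 0.0866) but did with the block. At IF 22 h 2 were higher and 1 lower, beside 2.63% and 3.44% of all genes. Fscn1 rose by 3.60 ± 0.85 (adjusted p 0.0158), Ccl22 by 4.01 ± 1.69 (adjusted p 0.0420), and Xcr1 fell, with −4.13 ± 0.91 (adjusted p 0.0184). Without IF 22 h replicates 2 and 3 none of these 3 passed, and Fscn1 was at 1.56 (adjusted p 0.613). Without unstimulated replicate 3 Fscn1 was at 7.97 (adjusted p 0.000663). Fscn1 also lost its call without unstimulated replicate 1 or 2 or IF 22 h replicate 3 (adjusted p 0.0613, 0.0803 and 0.0836) or in a fit of these 2 groups alone (0.0801), and Xcr1 without unstimulated replicate 3 (−3.32, 0.107) or IF 22 h replicate 2 (−3.66, 0.0700). Xcr1 was at −6.00 without IF 22 h replicate 3. Ccl22 lost its call on leaving out any 1 of the unstimulated libraries, or IF 22 h replicate 2 or 3. Its values were then 3.54 to 6.28 (adjusted p 0.0840 to 0.148). After thinning to the smallest library Ccl22 was at 1.53 (edgeR adjusted p 0.632). In the fit of IF 22 h and unstimulated cells alone 1 gene of the set passed.

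**Figure D2:**
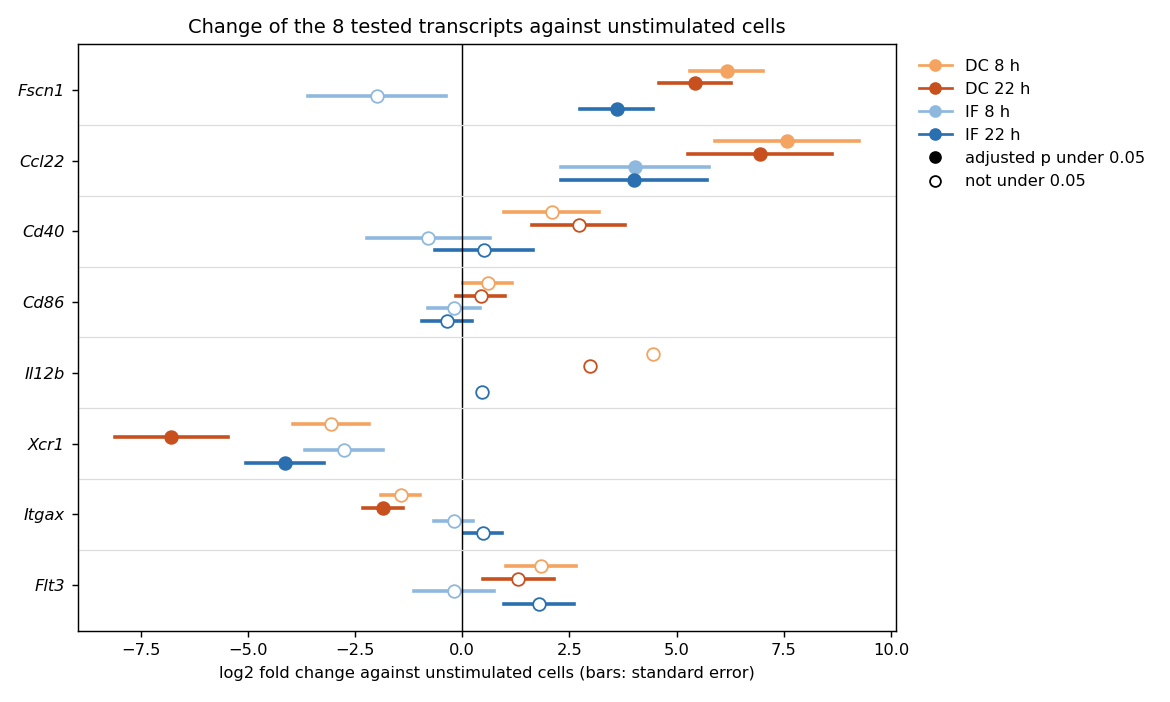
Log2 fold change of the 8 tested genes in each stimulated group against unstimulated cells, with bars of 1 SE and filled points for an edgeR adjusted p under 0.05; Il12b has no bar, and no point at IF 8 h where all libraries had 0 counts. Fscn1 and Ccl22 lie far to the right in both DC groups, while Xcr1 and Itgax lie to the left of 0 there.

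The 2 stimuli were then compared directly. Over both times 2 of the 8 genes were higher with DC and 1 lower, beside 1.76% and 1.45% of all genes. Fscn1 was higher by 4.98 ± 0.81 (edgeR adjusted p 0.000162), Ccl22 was higher by 3.25 ± 0.46 (adjusted p 0.000502) and Itgax was lower, with −1.78 ± 0.32 (adjusted p 0.00442). Il12b (adjusted p 0.0542) and Cd40 (2.54 ± 0.82, adjusted p 0.0993) did not pass, though DESeq2 called both (0.0102 and 0.0295), as did edgeR without a low-count filter (0.00278 and 0.0496). Without IF 22 h replicates 2 and 3, Fscn1 and Ccl22 passed at 6.00 and 3.61 (adjusted p 0.000858 and 0.0129) and Itgax did not, at −1.53 (adjusted p 0.0571). Ccl22 was at 3.85 without IF 8 h replicate 2. The median log2 fold change of the 8 genes was 1.66, against 0.03 for all genes.

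At 8 h 2 of the 8 were higher with DC and 0 lower, beside 0.434% and 0.231% of all genes. Fscn1 differed by 8.15 ± 1.50 (edgeR adjusted p 0.00101) and Ccl22 by 3.56 ± 0.68 (adjusted p 0.0211), which was 4.77 without IF 8 h replicate 2. Ccl22 missed the threshold without IF 8 h replicate 1 or 3 or DC 8 h replicate 1 or 2, with adjusted p-values of 0.0537 to 0.113. It also missed the threshold in the fit of DC 8 h and IF 8 h alone. At 22 h 1 was higher and 1 lower, beside 1.2% and 1.23% of all genes. Ccl22 was higher by 2.93 ± 0.60 (adjusted p 0.0188) and Itgax lower, with −2.32 ± 0.45 (adjusted p 0.0124). Fscn1 did not pass at 22 h, at 1.82 ± 0.62 (adjusted p 0.155), although all DC libraries lay above all IF libraries. It was at 2.64 without IF 22 h replicate 3 (adjusted p 0.119) and 3.86 without replicates 2 and 3. Without a low-count filter it passed at nearly the same value (1.81, adjusted p 1.21e-07). That call thus does not come from a larger difference. Itgax was at −3.27 without DC 22 h replicate 3, its highest DC library. Both calls at 22 h were lost without IF 22 h replicates 2 and 3 together, without replicate 3 alone (adjusted p 0.0862 for Ccl22 and 0.0942 for Itgax) and without DC 22 h replicate 1 (0.0599 and 0.0652). The call of Ccl22 was also lost without IF 22 h replicate 2 (0.0630). In the fit of DC 22 h and IF 22 h alone 1 gene of the set passed.

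Between DC 8 h and DC 22 h 0 of the 8 genes passed by edgeR, beside 0.48% of all genes. Xcr1 was the only gene of the set with an unadjusted p-value under 0.05 there, at −3.73 ± 1.34 (adjusted p 0.247), and DESeq2 called 0. Without a low-count filter Xcr1 passed (adjusted p 8.53e-05). With the replicate number as a block and only these 2 groups in the fit, 1 of the 8 passed and 166 of 10182 genes did. It was Fscn1, at −0.74 (adjusted p 0.0247). The same 6 libraries without the block gave −0.75 (adjusted p 0.364) and 0 called genes, the fit of all 15 libraries gave −0.74 (adjusted p 0.826), and every DC 22 h library lay below every DC 8 h library. Whether the DC-IF difference changed from 8 h to 22 h was tested by an interaction, for which 0 of the 8 and 0 of all genes (0%) passed by edgeR. Unadjusted p-values were under 0.05 for 2 of the 8, Fscn1 and Flt3, and for 858 of all genes, and DESeq2 called 0 of the 8 and 40 of all genes. The interaction of Fscn1 was −6.33 ± 1.62 (adjusted p 0.113), and it passed without IF 22 h replicate 1 (−6.78, adjusted p 0.00177). Without a low-count filter it also passed, where the value hardly moved (−6.34) but edgeR's adjusted p fell to 1.15e-20. The libraries were the same, so such p-values are not read as stronger evidence, and the cause was not tested. Without IF 22 h replicates 2 and 3 the interaction of Fscn1 was −4.28 and did not pass.

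The counts of the other genes were set against Fscn1 within each DC library, where a ratio of 2 genes is compared only from library to library. Per 100 Fscn1 counts there were 10.8, 10.9 and 8.18 Ccl22 counts at DC 8 h and 10.7, 12.6 and 8.79 at DC 22 h. The highest of these was 1.54 times the lowest. Cd86 ran from 1.94 to 3.57 per 100 at 8 h and from 3.48 to 4.17 at 22 h, and Flt3 from 1.94 to 4.44 and from 2.52 to 4.92. Cd40 spread more, from 0.647 to 2.25 and from 0.938 to 5.76, and Itgax ran from 3.04 to 4.12 and from 2.16 to 10.6. Xcr1 stood out, with 1.71 to 2.54 per 100 at 8 h and 0.126 to 0.352 at 22 h, a mean 0.118 times as high.

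Outside the DC wells some proportions were different. At IF 22 h there were 12.2, 7.22 and 2.91 Ccl22 counts per 100 Fscn1 counts, the last with a 95% counting interval of 1.87 to 4.33, below all DC libraries. Itgax was at 245, 65.0 and 72.5 per 100 and Flt3 at 30.6, 15.6 and 15.8, above every DC library. IF 22 h replicate 3 had the most counts. There Cd86 (3.61 per 100), Cd40 (2.33), Il12b (0.931), Ccl17 (0.466) and Cd80 (0.233) lay within their DC ranges, while Xcr1 (6.75) lay above its own. The DC ranges of Il12b, Ccl17 and Cd80 start at 0. In IF 22 h replicates 1 and 2 Cd86 was at 26.5 and 11.1 per 100, above every DC library. Cd40 was at 12.2 per 100 in replicate 1, also above every DC library, and at 0 in replicate 2. Unstimulated cells, with up to 196 Xcr1 counts and 62 to 90 Itgax counts, had at most 29 Fscn1 counts and 1 Ccl22 count. Itgax, Flt3 and Xcr1 thus did not keep 1 ratio to Fscn1 over the groups. For Ccl22 at IF 22 h the difference rests on replicate 3, 1 of the 2 libraries that stood apart. The counting intervals of replicates 1 and 2, 4.29 to 28.6 and 3.77 to 12.7, overlapped the DC values. At IF 8 h Ccl22 had 5, 9 and 0 counts beside 3, 2 and 1 of Fscn1, too few for a ratio.

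**Figure D3:**
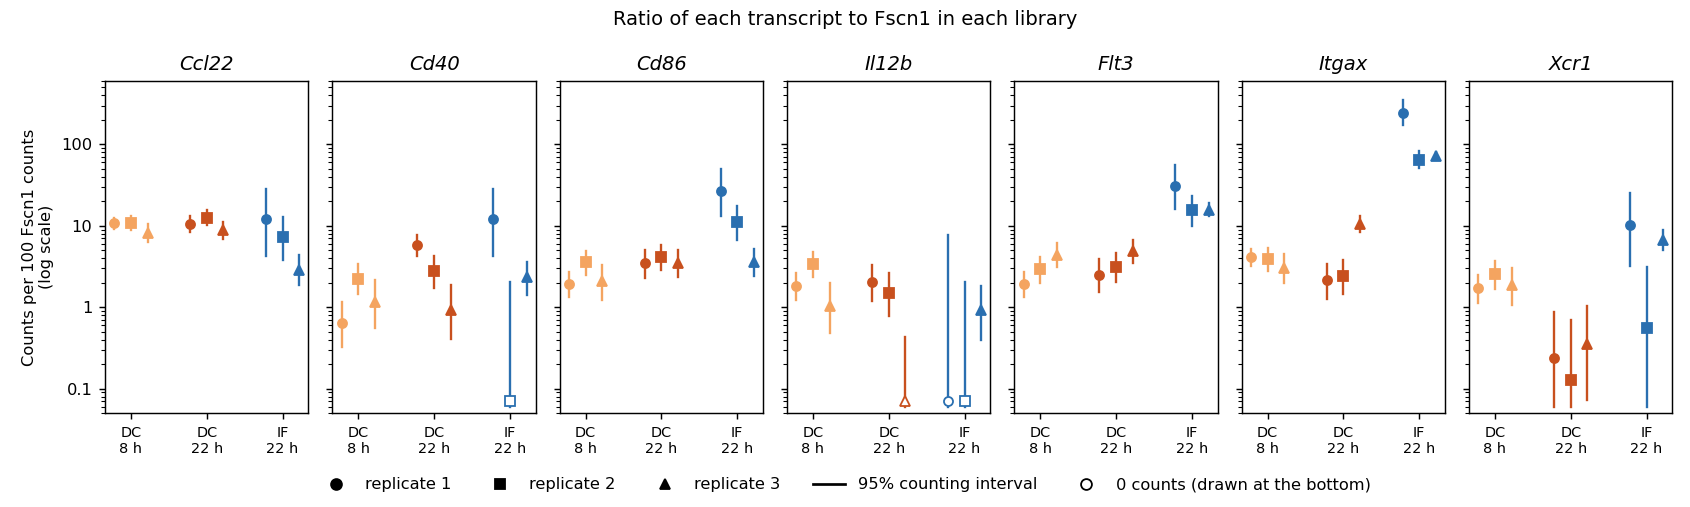
Counts of Ccl22, Cd40, Cd86, Il12b, Flt3, Itgax and Xcr1 per 100 Fscn1 counts in the 6 DC libraries and the 3 IF 22 h libraries. The scale is log, bars are the 95% counting interval, and open markers at the bottom are libraries with 0 counts. Ccl22 stays between 8.18 and 12.6 in all 6 DC libraries, and Xcr1 lies lower in the 3 DC libraries at 22 h than in the 3 at 8 h.

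Other genes of maturation were read from a list of 25, of which 24 were in the tables and 21 were tested. Against unstimulated cells 10 rose and 0 fell at DC 8 h (2.75% and 4.07% of all genes), and 8 rose and 1 fell at DC 22 h (3.41% and 4.35%). At IF 8 h 5 rose and 0 fell (3.04% and 4.72%), and at IF 22 h 6 rose and 1 fell (2.63% and 3.44%). Between DC and IF over both times 6 were higher with DC and 1 lower (1.76% and 1.45%), with a median log2 fold change of 0.76 against 0.03 for all genes. Without IF 22 h replicates 2 and 3, with 24 tested, 0 passed at IF 22 h, and 4 were higher and 0 lower over both times. Socs2, a feedback inhibitor of cytokine signalling, was at a mean of 22.0 CPM at DC 8 h and 17.9 at DC 22 h, against 0.506 and 1.60 in the IF groups (4.44 ± 0.63 over both times, edgeR adjusted p 0.000206). Cacnb3, a calcium channel subunit, was at 8.63 and 12.1 CPM with DC against 0.696 and 1.05 with IF (3.44 ± 0.48, adjusted p 0.000399). Cd83, a surface protein of mature dendritic cells, was at 40.2 and 18.0 CPM against 6.17 and 3.36 (2.50 ± 0.35, adjusted p 0.000570). These 3 also passed without IF 22 h replicates 2 and 3 (adjusted p 0.0112, 0.00438 and 0.00426). Activated T cells can express Socs2 and Cd83 too.

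Genes of dendritic cell identity, a list of 30 with 20 tested, moved in both directions. Against unstimulated cells 1 rose and 5 fell at DC 8 h (2.75% and 4.07% of all genes), and likewise 1 and 5 at DC 22 h (3.41% and 4.35%). At IF 8 h 0 rose and 4 fell (3.04% and 4.72%), and at IF 22 h 0 rose and 6 fell (2.63% and 3.44%). Over both times 3 were higher with DC than with IF and 0 lower (1.76% and 1.45%), with a median log2 fold change of 0.49 against 0.03 for all genes. They were Ccr9, a gut homing receptor also found on T cells (0.53 ± 0.10, edgeR adjusted p 0.00384), Spib, a transcription factor (2.79 ± 0.75, adjusted p 0.0341), and Itgae (1.17 ± 0.30, adjusted p 0.0460). Without IF 22 h replicates 2 and 3 none of these 3 passed (adjusted p 0.127, 0.151 and 0.449), while 1 other gene of the 25 tested in that fit did (Bst2, named after its values were seen), and the calls of Spib and Itgae were also lost on leaving out some single libraries. Itgae encodes CD103, the protein by which cells were sorted out. Zbtb46 and Clec9a, which mark conventional dendritic cells and are named here after their values were seen, went different ways. Zbtb46, a transcription factor, had 23, 15 and 8 counts at DC 8 h and 5, 4 and 8 at DC 22 h. It had 0 in every unstimulated and IF 8 h library, and 3, 1 and 8 counts at IF 22 h. Clec9a, a receptor for dead cells, had 6, 2 and 9 counts in unstimulated cells, 1, 6 and 0 at DC 8 h, 0, 0 and 3 at DC 22 h, 0, 3 and 0 at IF 8 h, and 3, 2 and 17 at IF 22 h.

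MHC class II genes, which dendritic cells and B cells express strongly, had 0 calls upward in the DC wells against unstimulated cells. Of 9 tested, 0 passed by edgeR at DC 8 h (2.75% of all genes higher and 4.07% lower), where 1 had an unadjusted p-value under 0.05, and at DC 22 h 0 rose and 1 fell (3.41% and 4.35% of all genes). DESeq2 gave the same counts of calls at both times. At IF 8 h 5 fell and 0 rose (4.72% and 3.04%). Their summed level was 573 to 1322 CPM in unstimulated libraries, 653 to 1014 at DC 8 h, 345 to 646 at DC 22 h, 246 to 534 at IF 8 h and 482 to 597 at IF 22 h. The DC 8 h range lay within that of unstimulated cells, whose top value is replicate 3, with the other libraries at 573 and 660 CPM. It lay above all IF 8 h libraries, and between DC and IF at 8 h 2 of the 9 were higher and 0 lower (0.434% and 0.231% of all genes). These were H2-Eb1 (2.56 ± 0.49, edgeR adjusted p 0.0286) and Cd74 (1.89 ± 0.40, adjusted p 0.0426), and without IF 22 h replicates 2 and 3 1 of the 9 passed. Over both times 1 gene was higher with DC and 0 lower (1.76% and 1.45%), H2-Eb1, a chain of the I-E molecule (1.40 ± 0.34, edgeR adjusted p 0.0339), while Cd74, the invariant chain, and Ciita, the class II transactivator, did not pass (adjusted p 0.0561 and 0.0705). DESeq2 called 4 of the 9 over both times: H2-Eb1 (adjusted p 0.0243), Cd74 (0.00909), Ciita and H2-Aa, the last named after its values were seen. Of 21 alternatives H2-Eb1 passed in 11, Cd74 in 5 and Ciita in 3. H2-Eb1 lost its call without IF 22 h replicates 2 and 3 (adjusted p 0.189), with a replicate block (0.0539), and without replicate 1 or 3 of IF 8 h, DC 8 h or DC 22 h or replicate 2 of IF 22 h (0.0503 to 0.0952).

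Markers of other cells were measured beside these results. The summed level of 10 B cell genes was 20.7 to 25.2 CPM in unstimulated libraries, 5.83 to 11.9 at DC 8 h, 6.96 to 16.1 at DC 22 h, 9.45 to 38.4 at IF 8 h and 23.8 to 45.7 at IF 22 h. Itgax and the summed B cell genes were both lower in every DC library than in every IF 22 h library. Within IF 22 h replicate 3 had the highest Itgax (31.8 CPM) and the lowest B cell sum (23.8). Replicate 2 had the lowest Itgax (14.0) and the highest B cell sum (45.7). IF 8 h replicate 1 had a B cell sum within the DC range (9.45) and Itgax above every DC library (11.1). The part of B cells in the Itgax result was not tested.

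Macrophage and monocyte genes, 9 in the tables, summed to 4.22 to 5.14 CPM at DC 8 h and 1.45 to 7.96 at DC 22 h, against 3.96 to 9.77 in unstimulated libraries, 1.96 to 5.63 at IF 8 h and 5.59 to 15.2 at IF 22 h. Of the 2 tested, Cd68 and Csf1r, 0 passed by edgeR between DC and IF over both times (1.76% of all genes higher and 1.45% lower). Of these 2 genes, 0 had an unadjusted p-value under 0.05. Among defining macrophage genes, named here after their values were seen, C1qa was at 0 in every stimulated library. Mertk had 3, 1 and 1 counts at DC 8 h and 0, 1 and 0 at DC 22 h. It had 0, 0 and 1 counts at IF 22 h, and 0 in every unstimulated and IF 8 h library. Neutrophil genes, 7 in the tables, summed to 9.75 to 25.8 CPM in unstimulated libraries, 4.47 to 13.7 at DC 8 h, 2.90 to 6.74 at DC 22 h, 5.17 to 12.6 at IF 8 h and 1.55 to 4.88 at IF 22 h. Of the 2 tested, 1 fell in each of the 4 stimulated groups against unstimulated cells. Among all genes 4.07% fell with DC and 4.72% with IF by 8 h, and 4.35% and 3.44% by 22 h. The neutrophil gene that fell was Elane, named after its values were seen. Its calls at DC 8 h and IF 22 h were lost without IF 22 h replicates 2 and 3. T cell genes had summed group means of 4397 to 9184 CPM. Of 9 tested, 8 fell at DC 8 h and 6 at DC 22 h against unstimulated cells (4.07% and 4.35% of all genes), 6 fell at IF 8 h and 5 at IF 22 h (4.72% and 3.44%), and 4 were lower and 1 higher with DC than with IF over both times (1.45% and 1.76%). When IF 22 h replicates 2 and 3 were left out, 1 fell at IF 22 h, and 2 were lower and 0 higher with DC than with IF. The summed level of the 10 mature dendritic cell transcripts was 153 to 208 CPM at DC 8 h, 94.2 to 122 at DC 22 h, 26.7 to 70.9 in unstimulated libraries, 17.3 to 26.2 at IF 8 h and 25.6 to 90.1 at IF 22 h. These 10 genes held 0.0161% to 0.0214% of all counts at DC 8 h. Fscn1 made up 77.0% to 81.8% of their counts at DC 8 h and 76.7% to 77.8% at DC 22 h. Without Fscn1 the sum was 27.9 to 40.0 CPM at DC 8 h and 21.3 to 27.1 at DC 22 h, against 26.7 to 64.2 in unstimulated libraries, 16.8 to 25.5 at IF 8 h and 19.7 to 46.3 at IF 22 h. The top of the unstimulated range was replicate 3, with Xcr1 at 45.6 CPM of its 64.2. The other unstimulated libraries were at 26.7 and 38.1 CPM, and DC 8 h replicates 1 and 2, at 40.0 and 39.5 CPM, lay above both. Ccl22, Cd40 and Flt3 were each above every unstimulated library in every DC library. Fscn1 and Ccl22 were high in the same 6 DC libraries in which the summed class II, macrophage and B cell genes were not above the range of unstimulated cells, whose class II top is replicate 3. Against IF at the same time, the class II sum was higher in every DC 8 h library and overlapped at 22 h. Whether these counts came from dendritic cells that passed the sort, from RNA carried with the T cells, or from the T cells was not tested.

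**Figure D4:**
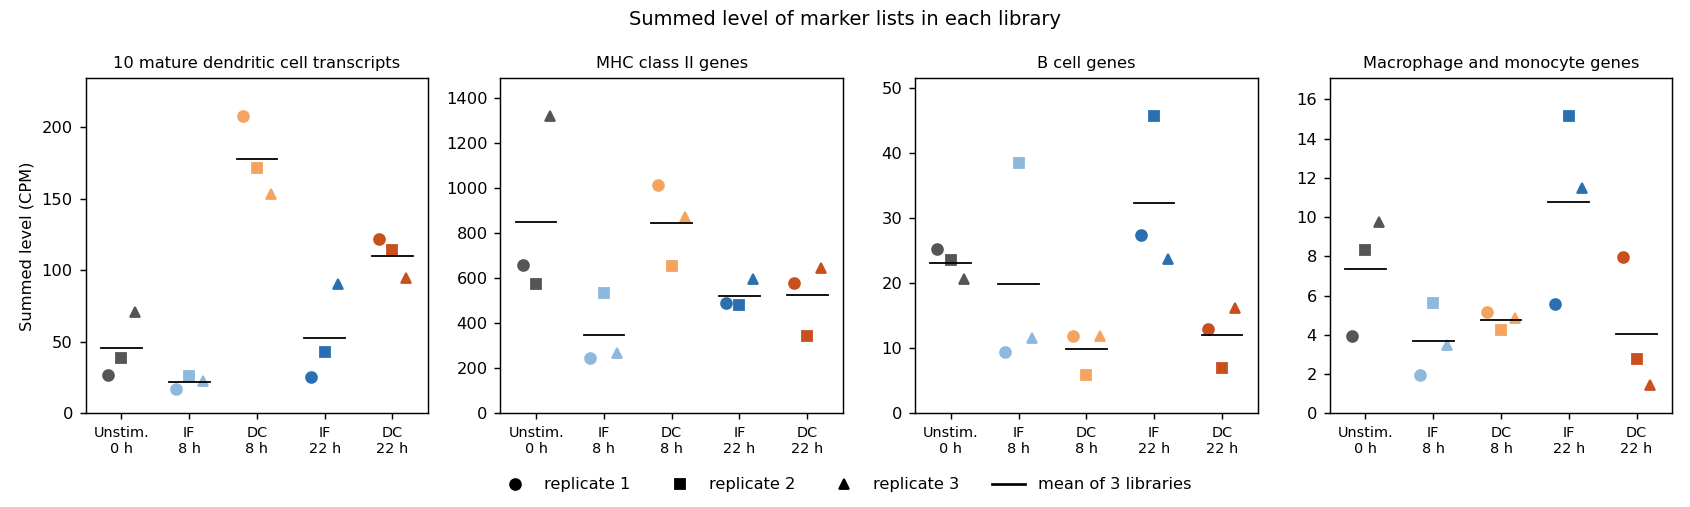
Summed normalised read counts (CPM) of the 10 mature dendritic cell transcripts and of the lists of marker genes in each library, with a bar at the group mean. The mature dendritic cell sum is highest at DC 8 h, 153 to 208 CPM, of which Fscn1 is 77.0% to 81.8% of counts, while the class II sum at DC 8 h lies within the range of unstimulated cells.

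Genes whose pattern was most like that of Fscn1 were found by Pearson's r of log2 CPM over the 15 libraries among 9267 genes, as a description. The libraries share their groups and the choice uses the same values, so no p-value is given. The 8 highest were Ctsh (0.925), a lysosomal protease, Cybb (0.868), a subunit of the phagocyte oxidase, Apobec3 (0.863), Gpr18 (0.860), Cacnb3 (0.858), Skap2 (0.839), Pfkl (0.832) and Cxcl16 (0.831). Ctsh was at a mean of 11.3 CPM at DC 8 h, 5.50 at DC 22 h and 5.71 at IF 22 h, against 2.21 in unstimulated cells and 0.459 at IF 8 h. Within the set r was 0.832 for Ccl22, 0.771 for Flt3, 0.737 for Il12b, 0.679 for Cd40 and 0.434 for Cd86, and it was below 0 for Xcr1 (−0.357) and Itgax (−0.567).

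The T cell partners of these molecules were tested as a list of 10. Over both times 1 was higher and 1 lower with DC than with IF (1.76% and 1.45% of all genes), with a median log2 fold change of −0.24 against 0.03. Cd28, the receptor of CD80 and CD86, was lower, at a mean of 130 CPM at DC 8 h against 353 at IF 8 h, and 102 at DC 22 h against 532 at IF 22 h (−1.91 ± 0.13, edgeR adjusted p 1.66e-06). Icam1, an adhesion ligand that both T cells and dendritic cells carry, was higher (0.94 ± 0.13, adjusted p 0.000319). Both also passed without IF 22 h replicates 2 and 3 (adjusted p 6.85e-05 and 0.0158). Itgb2, the integrin chain that pairs with CD11c, did not pass (adjusted p 0.169). Against unstimulated cells 3 of the 10 rose and 3 fell at DC 8 h (2.75% and 4.07% of all genes), and 2 rose and 3 fell at DC 22 h (3.41% and 4.35%). At IF 8 h 3 rose and 2 fell (3.04% and 4.72%), and at IF 22 h 3 rose and 3 fell (2.63% and 3.44%).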

How the data were processed

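RNA of 15 samples was made into CEL-seq libraries with barcoded reverse transcription primers, per the labels' protocols. The deposited tables hold raw counts per gene, whole numbers without normalization. The submitters' processing notes name BWA and the build mm10. The counting program, the annotation, strand and the use of molecular identifiers are not given in the sources used here, so counting intervals cover counting error only. Gene positions are from GENCODE vM21, and none of the 10 genes shares exonic bases with another gene there.

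The software was edgeR 4.0.16 with limma 3.58.1 under R 4.3.3. Of 17493 genes, 10831 passed filterByExpr (minimum count 10, minimum total 15). Libraries were scaled by TMM. All 15 libraries entered a quasi-likelihood fit of 5 group means, with 9 two-sided comparisons, Benjamini-Hochberg adjustment over all genes tested in each, and a threshold of 0.05. Fold changes use a prior count of 0.125. Intervals are exact 95% intervals of summed or paired counts. The fit was tested on simulated data. The chi-square per degree of freedom between replicates was 9.50 to 98.1, so none was a copy. Total counts of 2892874 to 19806730 put the level of 3 counts at 0.153 to 0.993 CPM.

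All 10 genes were named in every comparison. From each other list, the 3 tested genes with the smallest p-value between DC and IF over both times could be named, and likeness to Fscn1 used log2 CPM with a prior count of 2 and a mean of at least 20 counts. Results of single B cell genes are not reported here. The genes and lists were chosen with earlier results of these data known. Libraries with the same replicate number deviated together between DC 8 h and DC 22 h (correlations of 0.116, 0.399 and 0.238, all over 0.1, with pairs of different numbers at −0.307 to 0.117) and not between any other groups in all 3 pairs, so a replicate block was fitted for that comparison. This block, the sum without Fscn1 and the refits of the other lists were chosen after seeing the data. Alternatives were DESeq2 1.42.0, other scalings, filters and thresholds, a replicate block, thinning, fewer groups in the fit, and leaving out libraries.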

Additional observations from a re-analysis of the deposited data

How the results depend on the processing

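Of 72 values of the 8 tested genes over 9 comparisons, 15 changed sign in some alternative, and 0 of these were called. Fscn1 and Ccl22 passed at DC 8 h and DC 22 h against unstimulated cells and in DC against IF over both times in every alternative, and so did Fscn1 in DC against IF at 8 h. Calls of single genes were followed only for values with a small unadjusted p-value in the main fit, so not for all 72. Over the alternatives of those values 388 kept their side of the threshold, 24 came to pass and 50 were lost.

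Counts of called genes of the set moved as follows, and so did the calls over all genes. Over these alternatives all genes called ran from 307 to 1175 at DC 8 h and from 267 to 1299 at IF 8 h, each against unstimulated cells. In DC against IF at 8 h they ran from 25 to 215, and in DC 22 h against DC 8 h from 0 to 251. A count of the set that moved with them is thus no result about the set alone. Without a low-count filter, which also tests Ccl17 and Cd80, the number called was 5 at DC 8 h and 3 at IF 8 h against unstimulated cells. It was then 4 in DC against IF at 22 h, 6 over both times, 1 in DC 22 h against DC 8 h and 1 for the interaction. At a threshold of 0.01 it was 0 at IF 8 h, 0 at IF 22 h, 1 in DC against IF at 8 h and 0 at 22 h. With a fit of only the groups compared it was 4 at DC 8 h, 1 at IF 22 h, 1 in DC against IF at 8 h and 1 at 22 h. Without IF 22 h replicates 2 and 3 it was 0 at IF 8 h, 0 at IF 22 h and 0 in DC against IF at 22 h. After thinning to the smallest library it was 0 at IF 8 h (Ccl22 also fell short at IF 22 h, at 1.53 with adjusted p 0.632), and DESeq2 gave 5 in DC against IF over both times. The cause was not tested.

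Leaving out 1 library gave 2 to 2 called genes at DC 8 h, 3 to 4 at DC 22 h, 0 to 2 at IF 8 h and 1 to 3 at IF 22 h. In DC against IF it gave 1 to 2 at 8 h, 0 to 2 at 22 h and 3 to 4 over both times, and for the interaction 0 to 1. Over all genes it gave 404 to 665 calls at DC 8 h and 454 to 984 at DC 22 h. At IF 8 h these were 419 to 573 and at IF 22 h 283 to 947. In DC against IF they were 27 to 52 at 8 h, 90 to 759 at 22 h and 225 to 693 over both times. For the interaction they were 0 to 279. With raw library totals the mean of unstimulated libraries was 0.365 CPM for Cd40 and 12.5 CPM for Itgax, against 0.422 and 14.5.

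The same-numbered pairs of DC 8 h and DC 22 h all had correlations over 0.1, but pairs of different numbers there reached 0.117 and 0.107, against 0.116 for the lowest with the same number, so the pairing is a hint only. There a replicate block with only these groups, added after the data were seen, gave 1 called gene, against 0. In the other pairs of groups 1 of 27 pairs with the same number had a correlation over 0.1, with −0.189 as the lowest, and 9 of 15 libraries were closest to their own number. With a replicate block over all groups 3 genes passed at DC 8 h and 1 at IF 8 h, where Xcr1 passed and Ccl22 did not (adjusted p 0.0536).

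With library size alone in place of TMM the median change of all genes went from 0.04 to 0.30 (log2) at DC 8 h and to 0.37 at DC 22 h, and 79.6% and 85.4% of calls were higher, against 40.3% and 43.9%. Of the 72 values, 4 not called changed sign, among them Itgax, Cd86 and Flt3 at IF 8 h against unstimulated cells (0.05, 0.04 and 0.04). Over all genes DESeq2 called 1175 and 1267 at DC 8 h and 22 h, 1269 and 1066 at IF 8 h and 22 h, and 195, 563 and 600 in DC against IF at 8 h, at 22 h and over both times, against 739, 840, 840, 658, 72, 263 and 348 by edgeR. Depth limits Ccl17 and Cd80, with 61 and 26 counts in all, and Il12b outside the DC wells.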

Other observations

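Some genes of the partner and identity lists, singled out after their values were seen, varied widely between DC replicates. Irf8, a transcription factor of dendritic cells that activated T cells also express, had 751, 2111 and 410 counts at DC 8 h and 410, 4695 and 320 at DC 22 h. Xcl1, the ligand of XCR1, had 380, 901 and 111 counts at DC 8 h and 305, 1702 and 115 at DC 22 h. Il12rb2, the signalling chain of the interleukin-12 receptor, had 1, 10 and 1 counts at DC 8 h and 1, 44 and 0 at DC 22 h. Replicate 2 was the highest for all 3 genes at both times, while its Fscn1 level lay between those of the other DC replicates at both times.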
